A study of Rattus norvegicus with 65 samples.

Results

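The 10 genes described here encode enzymes that make phosphatidylcholine (PC), phosphatidylethanolamine (PE) and phosphatidylserine (PS), the main glycerophospholipids of cell membranes: the kinases Chka, Chkb, Etnk1 and Etnk2, the cytidylyl transferases Pcyt1a and Pcyt2, the final transferase Cept1, the base exchange enzymes Ptdss1 and Ptdss2, and the acyltransferase Agpat3. They were taken by symbol from a list written with earlier results of these data known, and all 10 were among the 14554 genes of the table. RNA was measured by sequencing in primary neonatal rat cardiomyocytes, heart muscle cells isolated from newborn rats, deprived of serum overnight and kept in serum-free medium, treated with 10 mM 5-fluorouracil (5FU), 2.5 mM acetaminophen (Ace) or 1.25 μM doxorubicin (Dox) for 6 or 24 h. 5FU and Dox are chemotherapeutics with known cardiotoxicity, and Ace is an analgesic. Each drug was added in DMSO, so that 5FU has the control DMSO1 with 1% DMSO, and Ace and Dox share the control DMSO2 with 0.25% DMSO. The 65 libraries form 10 groups of 6 or 7 (6 each for 5FU and DMSO1 at both time points and for Ace at 6 h, and 7 each for Ace at 24 h and for Dox and DMSO2 at both time points). Heart cells were pooled over litters before they were seeded. The libraries of each group therefore come from parallel cultures of a shared cell pool, and p-values measure the spread between cultures, not between animals.

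Total counts per library ran from 14332827 to 25738297, and each of the 10 genes had at least 13 counts in every library. The summed level of 8 cardiomyocyte markers, among them Tnnt2 and Myh6, was 34180 to 64400 CPM (counts scaled to the TMM-corrected depth of the library) in the control libraries, and all 8 were in the table. Markers of other cells were present as well: in the controls 7 fibroblast markers summed to 6480 to 19890 CPM, 4 smooth muscle markers to 432.9 to 4173 CPM, 5 endothelial markers to 118.5 to 303.2 CPM and 6 macrophage markers to 30.09 to 65.25 CPM. In a mixed culture such as this, fewer cells of a type and less RNA per cell cannot be told apart. The number given to a library is a name only and pairs nothing across groups. Of the 65 libraries, 3 stood apart by a low correlation with the rest of their group or by their scaling factor or depth (library 1 of 5FU at 6 h, library 1 of DMSO1 at 24 h and library 7 of Dox at 24 h), and a value that clearly changed without one of them is given both ways where it is first described.

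By way of background, PC and PE are made in the endoplasmic reticulum along parallel arms of the Kennedy pathway. In each arm a kinase phosphorylates the base (choline or ethanolamine), a cytidylyl transferase turns the phosphorylated base into its CDP form, and a phosphotransferase joins it to diacylglycerol. PS is not made in this way in mammals: PS synthases exchange the base of existing PC or PE for serine, and mitochondria can decarboxylate PS back to PE. Phosphatidate, formed by acyltransferases from lysophosphatidate, supplies the diacylglycerol for these steps. In heart muscle these lipids form the sarcolemma, the sarcoplasmic reticulum and the mitochondrial membranes.

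The 10 genes did not move as a block with any drug. A gene was called at an edgeR quasi-likelihood FDR below 0.01, adjusted over all 14554 genes. With 5FU at 6 h, 3 of the 10 rose and 2 fell, where 47.9% of all genes were called (23.4% higher, 24.5% lower). At 24 h 4 rose and 2 fell, against 55.8% of all genes (28% higher, 27.8% lower). With Ace at 6 h, 2 rose and 1 fell, against 31.7% of all genes (16.5% higher, 15.2% lower). At 24 h 4 rose and 2 fell, against 37.2% (18.2% higher, 19.1% lower). Read against these shares, 5 of 10, 6 of 10 and 3 of 10 were near the background for 5FU at both times and Ace at 6 h, and 6 of 10 was above it for Ace at 24 h, a difference that was not tested. With counts scaled by library size only, the splits were 1 higher and 2 lower for 5FU at 6 h and 1 higher and 1 lower for Ace at 6 h. The median log2 fold change over the 10 genes lay between -0.0672 and 0.0726 in the 5FU and Ace comparisons.

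In the Dox comparisons 4 members (Agpat3, Chka, Etnk2 and Ptdss1) were already known to be among the genes that set the Dox libraries apart when the list was written, so all Dox values are a description with no test. At 6 h 4 members were higher and 4 lower past the same threshold, where 64.2% of all genes were past it (31.5% higher, 32.7% lower). With DESeq2 size factors 4 were higher and 3 lower at 6 h. At 24 h 6 were higher and 4 lower, and 81.4% of all genes were past it (40.4% higher, 41% lower). The median absolute log2 fold change of the 10 genes in Dox at 24 h was 1.51, and that of all genes was 0.77. The former includes the 4 members known beforehand, with log2 values of 3.52 (Chka), 4.64 (Etnk2), 1.52 (Ptdss1) and -2.06 (Agpat3). The others had 1.5 (Etnk1), 0.642 (Cept1), 0.255 (Pcyt2), -0.939 (Pcyt1a), -0.968 (Chkb) and -1.93 (Ptdss2). The gap between the medians is therefore not read as a result about these genes. The members that were higher were Chka, Etnk1, Etnk2, Ptdss1, Cept1 and Pcyt2, and the lower ones were Chkb, Pcyt1a, Ptdss2 and Agpat3. Scaling by library size only shifted the median of all genes in Dox at 6 h by -0.15 on the log2 scale, and all 10 members with it.

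**Figure D1:**
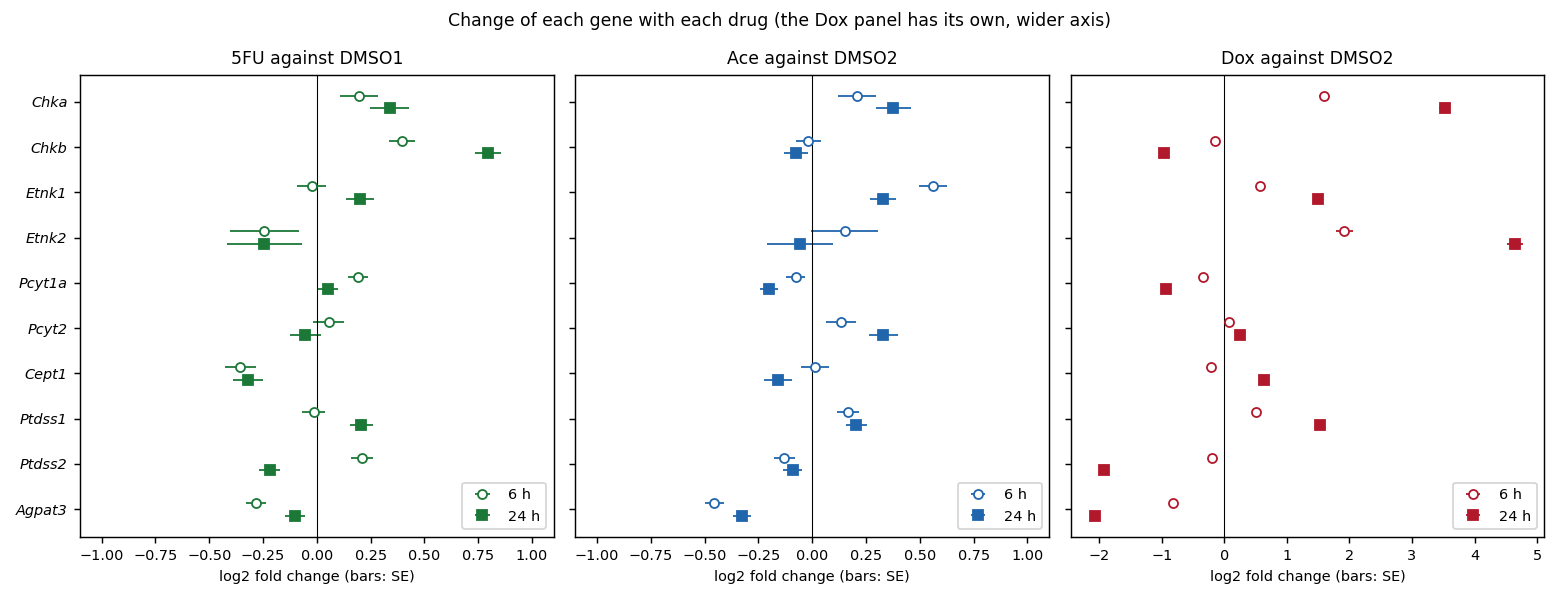
Log2 fold change of each of the 10 genes (rows) with 5FU, Ace and Dox against its own DMSO control at 6 h (open circles) and 24 h (filled squares), with standard errors as bars. The Dox panel has a wider axis, from Agpat3 at -2.06 to Etnk2 at 4.64 at 24 h, while the values with 5FU and Ace lie between -0.46 and 0.79.

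The start regions of 4 genes are shown because they belong to members at the ends of the range in Dox: Chka and Etnk2 with the largest increases, Agpat3 with the largest decrease, and Chkb as the gene that moved against Chka. Each run is the 250 bases before the start of the gene in RefSeq on the assembly GRCr8, read 5′ to 3′ on the strand of the gene. Capitals mark matches, on either strand, to a GC box (GGGCGG) or a CCAAT box (CCAAT). The first lies at chr1:210505865-210506114 on the plus strand, the second at chr7:122383950-122384199 on the minus strand, the third at chr13:47362810-47363059 on the plus strand and the fourth at chr20:10383931-10384180 on the plus strand.
Chka: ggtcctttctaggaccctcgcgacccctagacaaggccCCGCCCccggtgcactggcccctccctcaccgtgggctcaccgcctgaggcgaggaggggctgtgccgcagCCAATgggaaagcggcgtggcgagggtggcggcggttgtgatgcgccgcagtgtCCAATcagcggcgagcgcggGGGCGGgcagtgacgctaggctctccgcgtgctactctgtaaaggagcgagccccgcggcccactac
Chkb: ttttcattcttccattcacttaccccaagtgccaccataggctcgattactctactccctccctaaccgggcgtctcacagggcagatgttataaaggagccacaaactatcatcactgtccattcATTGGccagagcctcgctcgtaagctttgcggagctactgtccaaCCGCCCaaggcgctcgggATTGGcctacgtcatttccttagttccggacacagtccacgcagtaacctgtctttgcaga
Etnk2: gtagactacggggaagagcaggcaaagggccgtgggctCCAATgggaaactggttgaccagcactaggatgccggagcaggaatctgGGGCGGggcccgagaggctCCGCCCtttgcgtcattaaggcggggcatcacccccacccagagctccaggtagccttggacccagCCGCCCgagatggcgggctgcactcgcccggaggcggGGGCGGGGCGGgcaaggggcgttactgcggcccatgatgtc
Agpat3: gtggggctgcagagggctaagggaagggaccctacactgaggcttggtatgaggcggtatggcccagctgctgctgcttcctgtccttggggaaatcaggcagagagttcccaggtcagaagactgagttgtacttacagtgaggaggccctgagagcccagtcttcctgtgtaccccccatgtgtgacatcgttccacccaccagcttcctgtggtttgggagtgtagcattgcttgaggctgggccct

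Start regions of 9 of the 10 members (all but Ptdss1) were matched by gene. A GC box was found in 7 of them (Chka, Chkb, Etnk1, Etnk2, Pcyt1a, Pcyt2 and Cept1), and 30.5% of all 33469 start regions of this length hold one. A CCAAT box was found in 5 (Chka, Chkb, Etnk1, Etnk2 and Pcyt2), against 34% of all. The Chka region held a pair of each and was 70.8% G or C, the Etnk2 region held 5 GC boxes, of which the last 2 share a base, and was 68% G or C, and the Chkb region was 52% G or C, beside a median of 51.2% over all regions. The sterol element TCACNCCAC was found only in Pcyt1a among the 9 members (0.974% of all regions), and the antioxidant element TGACNNNGC in Etnk1 and Pcyt1a (10.1%). None of the 9 regions held the E-box CACGTG (5.59%), the cyclic AMP element TGACGTCA (1.59%) or the amino acid response element TTGCATCA (0.693%), and neither Agpat3 nor Ptdss2 held any motif searched. A match is only a run of letters in this window and was not tied to any value measured here.

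Chka encodes choline kinase alpha, the isoform that mouse embryos cannot do without. It had its lowest level in DMSO2 at 6 h, with 11.56, 13.18 and 14.31 CPM as the lowest, median and highest library. In Dox at 6 h the libraries held 36.24, 37.42 and 44.64 CPM, a 3.02-fold difference between the groups. In Dox at 24 h they held 202.2, 209.8 and 238.8 CPM against 16.82, 18.83 and 20.77 CPM in DMSO2, an 11.5-fold difference. The Dox groups stood above each other and above all other groups with no overlap, and the remaining 8 groups overlapped with their neighbours in the order of means. With 5FU the level was 24.96 ± 4.47 CPM at 6 h (SD, n = 6) against 21.82 ± 4.27 CPM in DMSO1 (n = 6), a log2 difference of 0.20 that did not pass the test (FDR 0.047). At 24 h Chka rose with 5FU by 0.34 ± 0.09 on the log2 scale (SE, FDR 0.00077), and the 6 treated libraries (19.18 to 25.9 CPM) lay above the 6 of DMSO1 (16.76 to 18.17 CPM). It rose with Ace at 24 h by 0.38 ± 0.08 (FDR 9e-05), again with no overlap (23.09 to 26.71 CPM against 16.82 to 20.77 CPM), while the value for Ace at 6 h was 0.21 (FDR 0.055).

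Chkb encodes choline kinase beta, the isoform whose loss causes muscular dystrophy in mice. Its highest level was with 5FU at 24 h: the libraries held 77.13, 83.19 and 88.93 CPM as lowest, median and highest, against 42.7, 46.77 and 59.61 CPM in DMSO1. It rose by 0.39 ± 0.06 on the log2 scale at 6 h (FDR 7.8e-08) and by 0.79 ± 0.06 at 24 h (FDR 3.1e-18), with no overlap of treated and control libraries at either time. At both times this was the largest increase with 5FU among the 10 genes. Library 1 of DMSO1 at 24 h was the highest of its group, and without it the increase at 24 h was 0.87. With Ace, Chkb differed from DMSO2 by -0.02 at 6 h (FDR 0.83) and -0.08 at 24 h (FDR 0.27). With Dox the mean was 37.33 ± 1.91 CPM at 6 h against 41.18 ± 2.53 CPM in DMSO2 (SD, n = 7 each), and 23.79 ± 1.95 CPM at 24 h against 46.51 ± 2.15 CPM, so that the 7 Dox libraries at 24 h were the lowest of all 65 for this gene.

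Etnk1 encodes ethanolamine kinase 1, which starts the PE arm. With Ace it rose by 0.56 ± 0.06 on the log2 scale at 6 h (FDR 8.2e-11), from 58.11, 60.81 and 70.58 CPM (lowest, median and highest) in DMSO2 to 87.43, 90.99 and 101.5 CPM, and by 0.33 ± 0.06 at 24 h (FDR 8e-06). The libraries did not overlap at either time, and at 6 h this was the largest change among the 10 genes with Ace. With 5FU it differed by -0.02 at 6 h (FDR 0.77) and was 0.20 ± 0.07 higher at 24 h (FDR 0.0068). That call was lost without any 1 of 5 libraries (libraries 1 and 3 of 5FU, with 0.183 and 0.165, and libraries 1, 3 and 4 of DMSO1, with 0.186, 0.19 and 0.177). With Dox the mean was 94.16 ± 5.16 CPM at 6 h against 63.17 ± 5.14 CPM in DMSO2, and 228.9 ± 29.8 CPM at 24 h against 81.09 ± 5.38 CPM (SD, n = 7 each). Library 7 of Dox at 24 h was the highest with 289.2 CPM, and the log2 difference was 1.498 with it and 1.46 without it.

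Etnk2, a further ethanolamine kinase known mainly from liver and reproductive tissue, was scarcely expressed outside Dox, with 13 to 55 counts per library in the other 8 groups and group means of 1.402 to 2.063 CPM. In Dox at 6 h its libraries held 5.816, 6.626 and 6.958 CPM against 1.337, 1.671 and 2.202 CPM in DMSO2, a 3.78-fold difference. In Dox at 24 h they held 39.38, 44.2 and 49.99 CPM against 1.444, 1.609 and 2.227 CPM, which is 25-fold and the largest difference of any member. Libraries of both Dox groups stood above all other libraries. With 5FU the log2 differences were -0.24 at both times (FDR 0.19 and 0.22), and with Ace 0.15 and -0.06 (FDR 0.47 and 0.78). Leaving out 1 library moved the 5FU values between -0.358 and -0.133 at 6 h, the latter without library 1 of 5FU, and between -0.347 and -0.124 at 24 h. The SEs of these 4 values were 0.153 to 0.175, above those of the better counted members, so that changes of this size were not detectable at this depth.

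**Figure D2:**
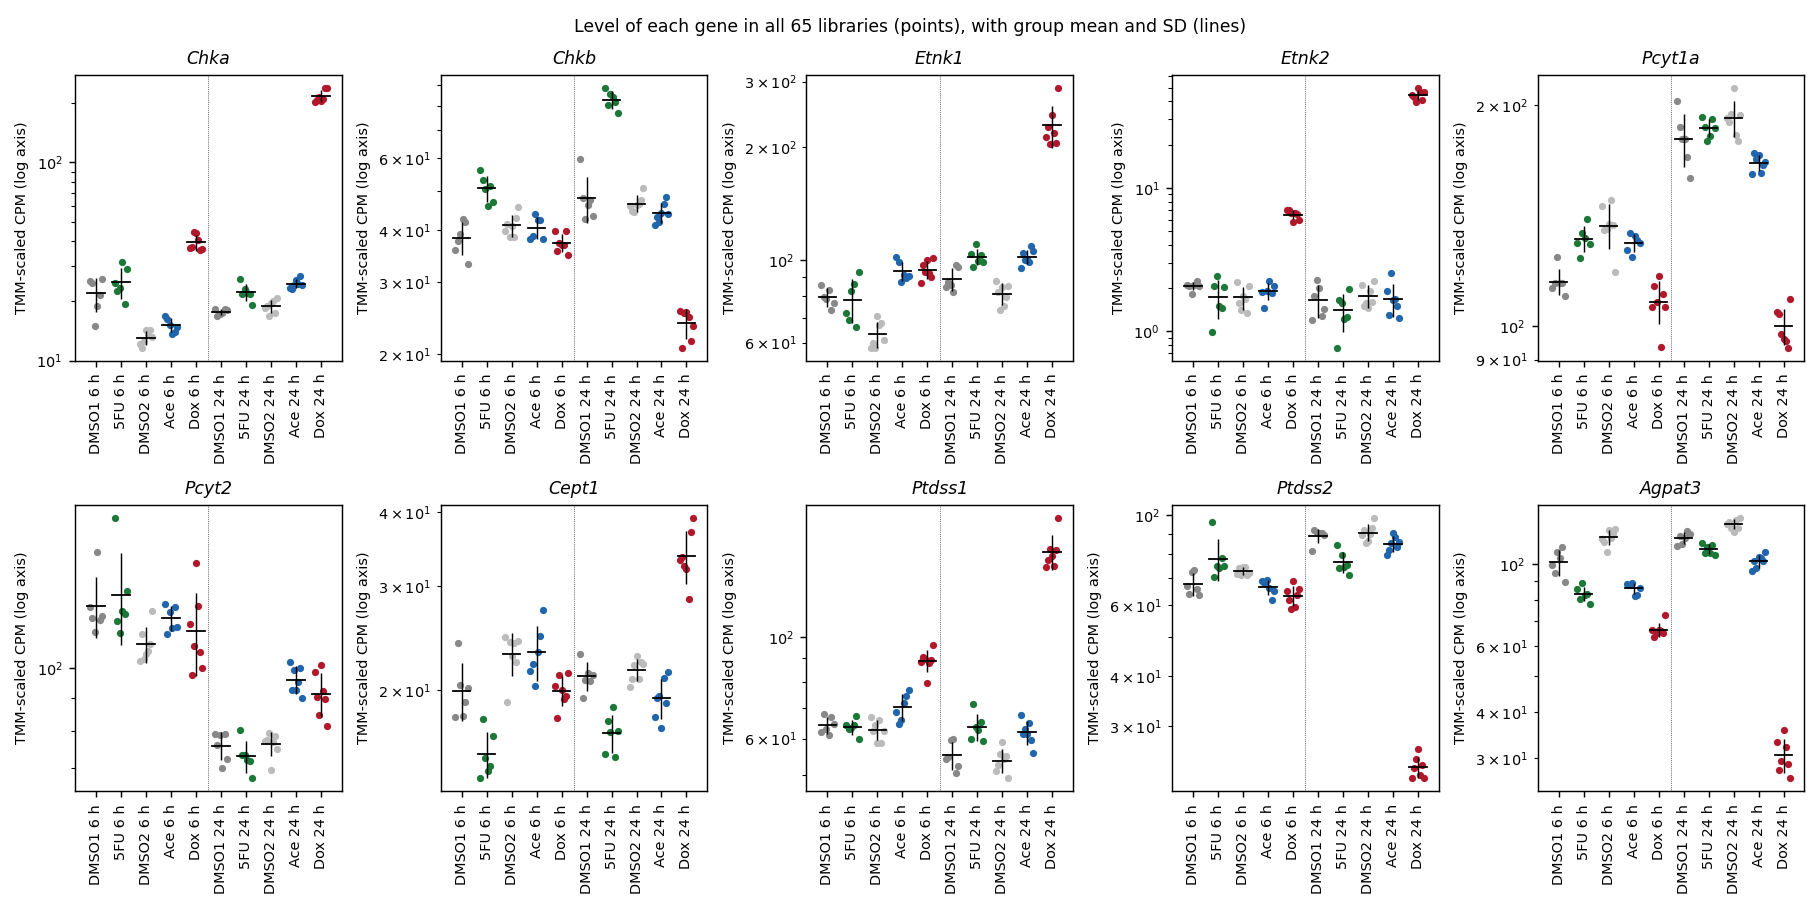
TMM-scaled CPM (log axis) of the 10 genes in all 65 libraries (points), with the mean and SD of each of the 10 groups (lines), 6 h to the left and 24 h to the right of the dotted line. The Dox libraries at 24 h are the highest for Chka, Etnk1, Etnk2, Cept1 and Ptdss1 and the lowest for Chkb, Ptdss2 and Agpat3, and the 5FU libraries at 24 h are the highest for Chkb.

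Pcyt1a encodes the alpha form of CTP:phosphocholine cytidylyl transferase, the rate-limiting and membrane-regulated step of PC synthesis. Its level followed culture time: the control libraries rose from 110 to 148.4 CPM at 6 h to 158.8 to 211.1 CPM at 24 h, by 0.56 ± 0.03 on the log2 scale (FDR 2.7e-24). In Dox this rise was missing, with 93.79, 107.9 and 117 CPM as lowest, median and highest library at 6 h and 93.33, 97.68 and 108.7 CPM at 24 h. The log2 differences from DMSO2 were -0.34 and -0.94, and Dox libraries at 24 h were 0.52 times the control. With Ace the gene was at -0.08 at 6 h (FDR 0.17) and fell by 0.20 on the log2 scale (SE 0.04) at 24 h with FDR 8.4e-05, where the 7 treated libraries (161 to 172.2 CPM) lay below the 7 of DMSO2 (178.6 to 211.1 CPM). With 5FU it rose by 0.19 ± 0.05 at 6 h (FDR 0.00037), a call that was lost with library size scaling (0.118, FDR 0.035), and at 24 h the difference was 0.05 (FDR 0.34), or 0.0892 (FDR 0.088) without library 1 of DMSO1.

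Pcyt2 encodes CTP:phosphoethanolamine cytidylyl transferase, the matching rate-limiting step of the PE arm. It moved with time in the direction opposite to Pcyt1a: the controls fell by 0.61 on the log2 scale from 6 to 24 h (SE 0.05, FDR 1.2e-17), from 102.7 to 151.3 CPM to 69.64 to 79.43 CPM. With Ace at 24 h it stood at a higher level, 89.77, 95.12 and 102.3 CPM (lowest, median and highest) against 69.64, 77.24 and 79.43 CPM in DMSO2, a rise of 0.33 ± 0.07 (FDR 3e-05) with no overlap. At 6 h the value for Ace was 0.13 (FDR 0.11). With Dox the means were 114.1 ± 16.7 CPM at 6 h against 108.8 ± 6.94 CPM, and 91.08 ± 7.04 CPM at 24 h against 76.29 ± 3.25 CPM (SD, n = 7 each). The small difference in Dox at 6 h changed sign with library size scaling (from 0.07 to -0.09). With 5FU the log2 differences were 0.05 at 6 h and -0.05 at 24 h (FDR 0.52 and 0.53), and the value at 6 h rests on library 1 of 5FU (170.9 CPM, beside 113.2 to 131.5 CPM in the other 5), without which it was -0.04.

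Cept1 encodes the choline/ethanolamine phosphotransferase that carries out the last step of both arms. It was the one member that fell with 5FU at both times: by 0.36 on the log2 scale at 6 h (SE 0.07, FDR 1.9e-05) and by 0.32 at 24 h (SE 0.07, FDR 7.9e-05). At 6 h its libraries held 14.16, 15.09 and 17.84 CPM as lowest, median and highest against 17.98, 19.62 and 24.01 CPM in DMSO1, and at 24 h 15.42, 16.98 and 18.69 CPM against 19.36, 21.02 and 23.03 CPM. Treated and control libraries did not overlap at either time. With Ace the values were 0.01 at 6 h (FDR 0.91) and -0.16 at 24 h (FDR 0.035). In Dox the order turned with time: 19.95 ± 1.18 CPM at 6 h against 23.03 ± 1.91 CPM in DMSO2, and 33.72 ± 3.45 CPM at 24 h against 21.63 ± 0.956 CPM (SD, n = 7 each).

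Ptdss1 encodes PS synthase 1, which exchanges the choline of PC for serine. In Dox its libraries held 79.45, 89.16 and 96.08 CPM (lowest, median and highest) at 6 h and 142.6, 150.9 and 183 CPM at 24 h, against 58.62, 62.31 and 67.02 CPM and 49.05, 54.09 and 59.05 CPM in DMSO2, differences of 1.42-fold and 2.87-fold. Neither pair of groups overlapped, and without library 7 of Dox at 24 h, which had the 183 CPM, the log2 difference was 1.5 instead of 1.52. Ptdss1 rose with Ace at both times, by 0.17 ± 0.05 on the log2 scale at 6 h (FDR 0.0057) and by 0.21 ± 0.05 at 24 h (FDR 4e-04). The call at 6 h was lost without any 1 of 5 libraries (4, 5 and 6 of Ace and 4 and 6 of DMSO2), with values of 0.149 to 0.162. With 5FU it was at -0.01 at 6 h (FDR 0.84) and rose by 0.21 ± 0.05 at 24 h (FDR 0.00062), and the control and treated libraries overlapped in each of these comparisons.

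Ptdss2 encodes PS synthase 2, which exchanges the ethanolamine of PE for serine. In Dox at 24 h its 7 libraries held 22.34, 23.62 and 26.38 CPM against 85.13, 89.59 and 98.45 CPM in DMSO2, 0.26 times the control, and they were the lowest of all 65. At 6 h the Dox libraries held 58.49 to 68.58 CPM and those of DMSO2 71 to 74.53 CPM, a log2 difference of -0.20. With 5FU the gene rose at 6 h by 0.21 ± 0.05 (FDR 0.00028) and was lower at 24 h by a log2 value of -0.22 (SE 0.05, FDR 0.00011), and the change between the times passed the test (-0.43 ± 0.07, FDR 7.8e-07). The rise at 6 h rests in part on library 1 of 5FU with 96.32 CPM: without it the value was 0.136 (FDR 0.0084) and the change between the times -0.363. The rise was not called in a fit of 5FU and DMSO1 at 6 h alone (0.206, FDR 0.03) or with library size scaling (0.129, FDR 0.04). With Ace the values were -0.13 at 6 h (FDR 0.024) and -0.09 at 24 h (FDR 0.095), and a fit of Ace and DMSO2 at 6 h alone called the former (-0.128, FDR 0.0067).

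Agpat3 encodes an acyltransferase that makes phosphatidate from lysophosphatidate and prefers polyunsaturated acyl groups. It was lower than its control in all 6 drug comparisons, and the difference passed the test in 3 of the 4 that involve 5FU or Ace. In Ace at 6 h its libraries held 81.68, 86.88 and 89.02 CPM as lowest, median and highest against 107.3, 117.6 and 123.9 CPM in DMSO2, a fall of 0.46 on the log2 scale (SE 0.05, FDR 9.3e-13), and at 24 h it fell by 0.33 (SE 0.04, FDR 2.5e-09), in both cases with no overlap. With 5FU it fell by 0.28 at 6 h (SE 0.05, FDR 4.9e-07), again with no overlap, and was at -0.10 at 24 h (FDR 0.054). In Dox the libraries held 63.7, 65.92 and 72.92 CPM at 6 h and 26.51, 29.43 and 35.66 CPM at 24 h, where DMSO2 held 121.6, 128.2 and 132.8 CPM, so that the mean was 0.57 times the control at 6 h and 0.24 times at 24 h. Without library 7 of Dox at 24 h the log2 difference there was -2 instead of -2.06. In the order of its 10 group means, 3 of 9 neighbouring pairs did not overlap, those that set off the 2 Dox groups and 5FU and Ace at 6 h from the rest.

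With 5FU at 6 h, 3 members lay outside the range of their control libraries (Chkb above, Cept1 and Agpat3 below), and 28.2% of all genes did so. At 24 h there were 3 (Chka and Chkb above, Cept1 below; 42.9% of all genes). With Ace at 6 h there were 3 (Etnk1 above, Ptdss2 and Agpat3 below; 24.5%) and at 24 h 5 (Chka, Etnk1 and Pcyt2 above, Pcyt1a and Agpat3 below; 26.9%). In Dox 7 did so at 6 h, beside 42.6% of all genes, and all 10 at 24 h, beside 68.2%. The 24 h samples with 5FU, Ace and Dox also had lower fibroblast markers (7 of 7 called lower with each drug, median log2 fold changes of -1.5, -1.28 and -2.41) and lower endothelial markers (4 of 5 with 5FU and Ace and 5 of 5 with Dox). Cardiomyocyte markers were lower in 5 of 8 with 5FU, 2 of 8 with Ace and 7 of 8 with Dox at 24 h, and their summed level in Dox at 24 h was 12110 to 16890 CPM beside 36390 to 48500 CPM in DMSO2. Smooth muscle markers were higher in Dox (4 of 4 at 6 h and 3 of 4 at 24 h), and macrophage markers were lower at 24 h in 6 of 6 with Dox and 4 of 6 with Ace. At 6 h fibroblast markers were lower in 5 of 7 with Ace and 5 of 7 with Dox, and endothelial markers in 2 of 5 with 5FU, 3 of 5 with Ace and 5 of 5 with Dox. The part of these shifts in the values of the 10 genes was not tested.

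Whether the effect of a drug differed between the times was tested as an interaction. For 5FU the effect on 2 members differed, Chkb (0.40 ± 0.08 on the log2 scale, FDR 6.5e-05) and Ptdss2 (-0.43 ± 0.07, FDR 7.8e-07), and 39.5% of all genes were called (20.3% higher, 19.2% lower). With library size scaling 3 higher and 1 lower were called in place of 1 and 1, Ptdss1 and Agpat3 being the added ones. For Ace edgeR called 0 members, and 11.6% of all genes (5.58% higher, 6.06% lower). At an unadjusted p below 0.05 there were 3, beside 32.4% of all genes, and the DESeq2 Wald test called 0. The largest Ace interaction was that of Etnk1, whose effect at 24 h was lower by a log2 value of -0.23 ± 0.09 (FDR 0.053). For Dox, as a description, 9 of 10 members were past the threshold, as were 64.8% of all genes (34% higher, 30.8% lower), and in each of the 9 except Cept1 the difference from the control was larger at 24 h than at 6 h in the same direction.

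The effects of Ace and 5FU, which have separate controls, were set against each other. At 6 h they differed for 5 members (30.9% of all genes, 17.1% higher with Ace and 13.8% lower). Etnk1 (0.58 ± 0.09 on the log2 scale, FDR 4.4e-07) and Cept1 (0.37 ± 0.10, FDR 0.0016) responded higher with Ace, and Chkb (-0.41 ± 0.08, FDR 4.9e-05), Ptdss2 (-0.34 ± 0.07, FDR 5.8e-05) and Pcyt1a (-0.27 ± 0.07, FDR 0.00059) responded higher with 5FU. Agpat3 was called as well by the DESeq2 Wald test (-0.184, FDR 0.0089), and Ptdss1 with library size scaling (0.224, FDR 0.0088). At 24 h they differed for 4 (37.3% of all genes, 19.1% higher with Ace and 18.2% lower): Pcyt2 was higher with Ace (0.385, SE 0.10, FDR 0.00087), and Chkb (-0.87 ± 0.08, FDR 1e-13), Pcyt1a (-0.25 ± 0.06, FDR 0.00074) and Agpat3 (-0.23 ± 0.06, FDR 0.0022) were lower with Ace than with 5FU. With library size scaling Pcyt1a and Agpat3 lost the call at 24 h, which left 1 higher and 1 lower. For Chka, which rose at 24 h with each drug, the difference was 0.04 ± 0.12 (FDR 0.82).

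The DMSO controls differed at 6 h for 4 members, with 16.5% of all genes called (9.87% higher in DMSO1, 6.6% lower). In DMSO1 (1% DMSO) Chka was 0.74 ± 0.09 higher on the log2 scale (FDR 1.8e-09), with 15.02, 22.94 and 25.86 CPM as lowest, median and highest library against 11.56, 13.18 and 14.31 CPM in DMSO2. This vehicle difference in Chka at 6 h was larger than its differences with 5FU and Ace at 24 h (0.34 and 0.38). At 24 h the controls differed in Chka by -0.101, which was not called. Etnk1 was higher by 0.33 ± 0.06 (FDR 6.2e-05), and libraries of Chka and Etnk1 did not overlap between the controls (5.07% of all genes). Pcyt1a (-0.25 ± 0.05, FDR 2e-05) and Agpat3 (-0.22 ± 0.04, FDR 0.00011) were lower in DMSO1. With library size scaling 2 members were higher and 4 lower. Smooth muscle markers were also higher in DMSO1 at 6 h (3 of 4 called, summed level 889.9 to 4173 CPM against 712.6 to 1107 CPM), fibroblast (6 of 7) and endothelial markers (4 of 5) lower and cardiomyocyte markers higher (4 of 8), and their part in these differences was not tested. At 24 h edgeR called 0 members between the controls and 0.433% of all genes (0.137% higher, 0.295% lower), 2 members had an unadjusted p below 0.05 (16.3% of all genes), and the DESeq2 Wald test called 0. No member had controls apart in range at 24 h, as 1.7% of all genes did.

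With culture time alone 7 members changed in the controls (64.6% of all genes, 32.7% higher and 31.9% lower). Pcyt1a (0.56), Ptdss2 (0.36 ± 0.03, FDR 1.4e-14), Etnk1 (0.26 ± 0.05, FDR 9e-07), Chkb (0.25 ± 0.04, FDR 3e-07) and Agpat3 (0.17 ± 0.03, FDR 4.3e-06) were higher at 24 h on the log2 scale. Pcyt2 (-0.61) and Ptdss1 (-0.22 ± 0.04, FDR 2e-07) were lower. Chka, Etnk2 and Cept1 did not pass the test over both controls (0.11, -0.13 and -0.0041, FDR 0.11, 0.29 and 0.94). For Chka, Etnk2 and Cept1 that value averages moves of the means in opposite directions, which were not tested singly. The mean of Chka went from 21.82 to 17.56 CPM in DMSO1 and from 13.07 to 18.83 CPM in DMSO2, and that of Cept1 from 19.94 to 21.08 CPM and from 23.03 to 21.63 CPM. That of Etnk2 went from 2.063 to 1.659 CPM in DMSO1 and from 1.717 to 1.766 CPM in DMSO2. In Dox, Ptdss2 and Agpat3 went from 63.1 and 66.54 CPM at 6 h to 23.8 and 30.57 CPM at 24 h, while both rose over that time in the controls. Macrophage markers (6 of 6) and fibroblast markers (7 of 7) were also higher in the controls at 24 h, and 4 of 8 cardiomyocyte markers were lower and 1 higher. Of the smooth muscle markers 3 of 4 were lower and 1 higher (median log2 fold change -1.49). Of the endothelial markers 3 of 5 were higher and 1 lower. The part of these marker shifts in the changes with culture time was not tested.

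In Dox at 24 h, Chka and Chkb moved in opposite directions, as did Ptdss1 and Ptdss2, while Etnk1 and Etnk2 rose by unequal amounts. The log2 ratio of the counts of each pair within each library was therefore taken, in which the scaling between libraries cancels. These pairs were chosen after the values were seen and are given with no test, and a ratio shows unequal change only. The ratio of Chka to Chkb was -1.85 to -1.51 in DMSO2 at 6 h and -0.137 to 0.263 in Dox, and -1.45 to -1.21 in DMSO2 at 24 h and 2.99 to 3.47 in Dox, a shift of 1.74 and 4.49. With 5FU at 24 h it shifted by -0.47 and with Ace at 24 h by 0.45, in both cases with no overlap, towards Chkb with 5FU and towards Chka with Ace. Between DMSO1 and DMSO2 at 6 h the same ratio differed by 0.82, also with no overlap, which is more than either of these drug shifts. At 24 h, the time of these drug shifts, it differed between DMSO1 and DMSO2 by -0.132, and the ranges overlapped. The ratio of Ptdss1 to Ptdss2 was -0.346 to -0.0949 in DMSO2 at 6 h and 0.212 to 0.619 in Dox, and -1 to -0.548 in DMSO2 at 24 h and 2.52 to 3.03 in Dox, a shift of 0.71 and 3.45. It also shifted by 0.43 with 5FU at 24 h and by 0.30 with Ace at 6 h with no overlap. The ratio of Etnk2 to Etnk1 shifted by 1.36 and 3.17 in Dox, from -5.87 to -5.26 in DMSO2 at 24 h to -2.64 to -2.24, and overlapped with the control in the 5FU and Ace comparisons.

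**Figure D3:**
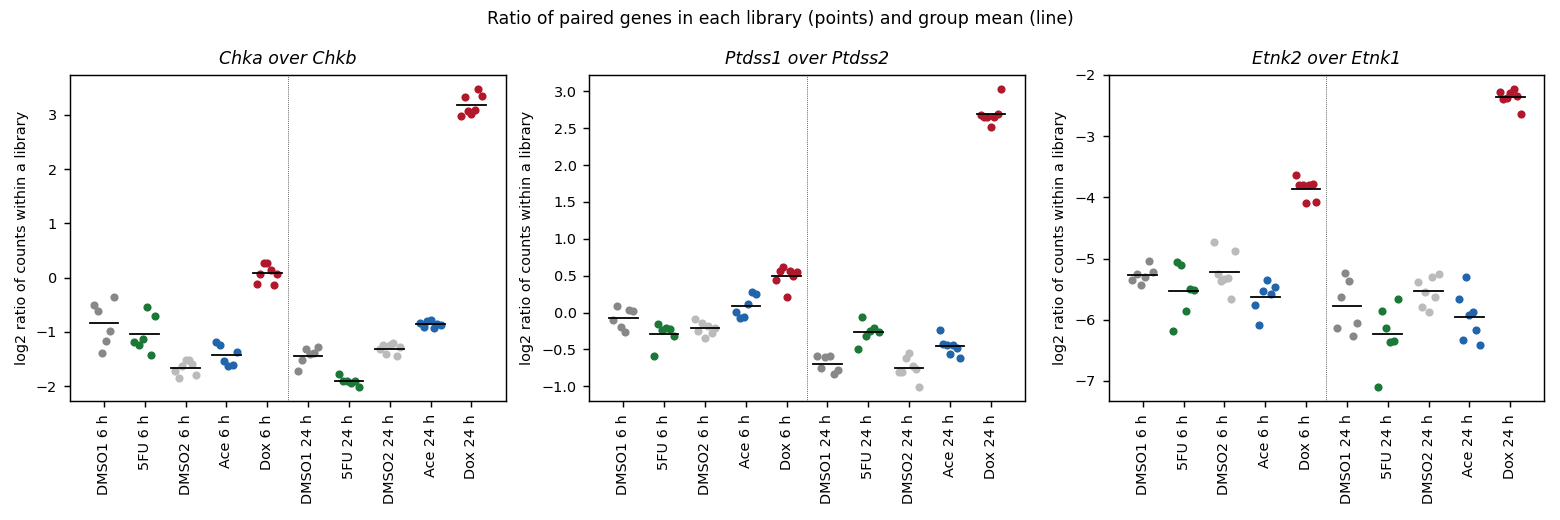
Log2 ratio of the counts of Chka to Chkb, Ptdss1 to Ptdss2 and Etnk2 to Etnk1 in each of the 65 libraries (points), with the group mean (line), 6 h to the left and 24 h to the right of the dotted line. In all 3 panels the 7 Dox libraries at 24 h stand apart from the other groups, at means of 3.19, 2.69 and -2.36.

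Correlation between members was taken over the 10 group means of log2 CPM, which include both Dox groups. Etnk2 and Ptdss1 had a Pearson r of 0.969, Chka and Etnk2 0.953 and Ptdss2 and Agpat3 0.945, and the most negative values were those of Ptdss1 with Agpat3 (-0.979) and with Ptdss2 (-0.97). The highest r of Pcyt2 was 0.129, with Ptdss1, and its lowest -0.703, with Pcyt1a. These are descriptions over 10 points that share the control groups and cell preparation, and the Dox groups lie far from the rest. Agpat3, Chka, Etnk2 and Ptdss1 were listed with their Dox response known. A strong r of either sign among them was largely built in by that choice and is not read as a shared pattern. A search over 10499 named genes averaging 100 counts or more over all 65 libraries gave the closest pattern by this measure. Those closest to each member were Rccd1 (0.983) and Npnt (0.983) for Chka, Cdk11b (0.986) and Ddx41 (0.977) for Chkb, and Dexi (0.982) and Rmnd5a (0.98) for Etnk1. They were Kctd11 (0.994) and Nkx6-1 (0.993) for Etnk2, Dll4 (0.987) and Sh3glb2 (0.983) for Pcyt1a, Hsd17b7 (0.979) and Mcm5 (0.978) for Pcyt2, and Sfi1 (0.978) and Samd11 (0.977) for Cept1. For Ptdss1 they were Pgap6 (0.987) and Lactb (0.986), for Ptdss2 Pfkm (0.992) and Tmem179 (0.991), and for Agpat3 Dpysl2 (0.996) and Gcn1 (0.992). The closest of so many genes have a high r by selection. The Dox groups weigh on these values too, and a gene counted mainly in Dox can pass the limit of 100 counts. These genes are therefore not read as sharing a pattern with the members.

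The other genes of phospholipid metabolism were taken from 6 lists, written with earlier results known, and the table held 47 of their 51 genes. The list of other steps to PC, PE and PS holds 5 genes. With 5FU 2 of them fell at 6 h and 4 at 24 h, and with Dox 2 fell at 6 h and 3 at 24 h, with no rise called. The shares of all genes called there were 47.9%, 55.8%, 64.2% and 81.4%. With Ace 1 fell at 6 h, and 1 rose and 1 fell at 24 h (31.7% and 37.2% of all genes called). Nothing particular to this list is read from these counts. Pcyt1b, the beta form of the PC cytidylyl transferase, fell with 5FU at both times, from 1.858 to 3.147 CPM in DMSO1 to 0.8416 to 1.563 CPM at 6 h (log2 -1.11 ± 0.20, FDR 1.8e-06) and by a log2 value of -0.93 ± 0.21 at 24 h (FDR 9.3e-05), and it fell at 6 h with Ace (-0.66 ± 0.19, FDR 0.0029) and Dox (-0.55 ± 0.18, FDR 0.0051). Chpt1, the cholinephosphotransferase of the Golgi, fell with 5FU, Ace and Dox at 24 h (-0.30, -0.27 and -1.34, FDR 0.0023, 0.0047 and 7.6e-23). Selenoi, the ethanolaminephosphotransferase, fell with 5FU at 6 h (-0.30 ± 0.05, FDR 1.3e-06) and Dox at 24 h (-0.15 ± 0.05, FDR 0.004) and rose with Ace at 24 h (0.24 ± 0.05, FDR 1.9e-05). Pemt, which methylates PE to PC, fell with 5FU and Dox at 24 h (-0.72 and -0.80, FDR 0.00016 and 2.5e-06), and Pisd, which decarboxylates PS to PE, fell with 5FU at 24 h (-0.19 ± 0.06, FDR 0.0062) and Dox at 6 h (-0.17 ± 0.06, FDR 0.0058).

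Over all 47 genes, 6 rose and 11 fell with 5FU at 6 h and 11 and 16 at 24 h, 7 and 10 with Ace at 6 h and 9 and 12 at 24 h, and 14 and 14 with Dox at 6 h and 17 and 22 at 24 h. The shares of all genes called in these comparisons, in the same order, were 47.9%, 55.8%, 31.7%, 37.2%, 64.2% and 81.4%, and nothing particular to the 47 genes is read from their counts. With library size scaling the counts were 4 and 16 for 5FU at 6 h, 9 and 8 for Ace at 24 h and 7 and 21 for Dox at 6 h. Of the 13 genes of phosphatidate and diacylglycerol supply, 8 rose and 5 fell with Dox at 24 h (81.4% of all genes called), and 5 rose and 5 fell with Ace at 24 h (37.2%). Agpat2, an acyltransferase for the same reaction as Agpat3, fell in all 6 drug comparisons, by a log2 value of -0.40 with Ace at 24 h to -0.996 with Dox at 24 h (FDR 2.1e-08 and 3e-24), and was chosen here after its values were seen. Agpat1, Agpat4 and Agpat5 of the same list went the other way in Dox at 24 h. Their means there were 150.9, 51.14 and 122.5 CPM, against 95.2, 28.28 and 32.98 CPM in DMSO2. With 5FU at 24 h Agpat1 and Agpat5 rose (0.48 and 0.23, FDR 4.2e-15 and 0.0011), and Agpat4 was at 0.006 (FDR 0.93). The phosphatidate phosphatase gene Lpin2 rose with 5FU at 6 h (0.39 ± 0.07, FDR 3.3e-06) and Ace at 6 h (0.49 ± 0.07, FDR 2.7e-08) and fell with 5FU at 24 h (-0.26 ± 0.07, FDR 0.0019). Its mean was also higher in Ace and Dox at 24 h (27 and 39.99 CPM) than in DMSO2 (21.57 CPM). Lpin3 fell with 5FU at 24 h from 21.11 to 5.049 CPM (-2.06 ± 0.11, FDR 4.3e-25). Of the lipid phosphate phosphatases, Plpp1 fell with Ace at 24 h (-0.56 ± 0.05, FDR 3e-14) and Plpp3 with Dox at 6 h (-1.07 ± 0.09, FDR 7.9e-17). Plpp3 was lower in Dox at 24 h as well, with a mean of 15.24 CPM against 63.38 CPM in DMSO2. Plpp2 went the other way in Dox at 24 h, with 24.42 to 28.49 CPM against 3.884 to 5.456 CPM in DMSO2. Its mean in Ace at 24 h was 6.288 CPM, against 4.848 CPM in DMSO2.

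Among the 5 choline transport genes in the table, 2 rose and 3 fell with Dox at 24 h, where 81.4% of all genes were called. Flvcr2 rose with Ace at 6 h (0.80 ± 0.24, FDR 0.0061) and with Dox at 6 and 24 h (1.24 ± 0.23 and 2.47 ± 0.20, FDR 2.5e-06 and 2.5e-18), from 0.9892 to 1.864 CPM in DMSO2 at 24 h to 4.721 to 11.61 CPM. Slc44a2 fell in Dox at 24 h from 265.4 to 48.8 CPM (-2.44 ± 0.08, FDR 9.3e-37). Slc44a5 was near the limit of counting: it had 0 to 4 counts with 5FU at 24 h against 3 to 19 in DMSO1 (FDR 1.1e-07), and it also fell with Ace at 24 h (4 to 11 counts against 10 to 23, FDR 3.4e-05) and with Dox at 6 h (2 to 6 against 7 to 25, FDR 0.00022). In Dox at 24 h Slc44a5 was lower too, with 4 to 9 counts against 10 to 23 in DMSO2. In the CDP-diacylglycerol branch, which leads to phosphatidylinositol and cardiolipin, 3 of 8 genes rose and 4 fell with Dox at 24 h, beside the same 81.4%. Cds1, a CDP-diacylglycerol synthase of the endoplasmic reticulum, rose with Dox 2.79-fold at 6 h and 15-fold at 24 h (FDR 1.7e-07 and 8.8e-26). It had few counts in DMSO2, with 4 to 15 per library at 6 h and 5 to 14 at 24 h, against 89 to 175 in Dox at 24 h. Cds2 of the same list went the other way in Dox. Its means were 15.61 CPM at 6 h and 18.56 CPM at 24 h, against 27.49 and 41.14 CPM in DMSO2. Tamm41, the mitochondrial CDP-diacylglycerol synthase, fell with Dox at 24 h from 13.55 to 3.008 CPM (-2.18 ± 0.09, FDR 6.1e-33). Pgs1 rose with 5FU at 24 h (0.77 ± 0.06, FDR 2.9e-18).

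Of the genes of phospholipid breakdown, Pla2g4a, the cytosolic phospholipase A2, fell with 5FU at 6 h from 7.878 to 3.002 CPM (-1.39 ± 0.12, FDR 3.5e-16). Gpcpd1, which cleaves glycerophosphocholine, rose with 5FU at 6 h (0.52 ± 0.10, FDR 5.8e-06), and the lysophospholipase gene Pnpla6 rose with 5FU at 24 h from 26.7 to 53.23 CPM (0.99 ± 0.08, FDR 4.7e-17). Of the 8 remodelling genes, 2 rose and 2 fell with Ace at 24 h, where 37.2% of all genes were called. Those that rose were Mboat2 and Lpcat1, which reacylate lysophospholipids (0.41 ± 0.09 and 0.40 ± 0.10, FDR 0.00011 and 0.00048). The means of Lpcat4 and Lpcat2 were lower with Ace at 24 h, at 15.04 and 2.731 CPM against 19.19 and 3.647 CPM in DMSO2. The Ace and Dox comparisons share DMSO2 as their control.

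**Figure D4:**
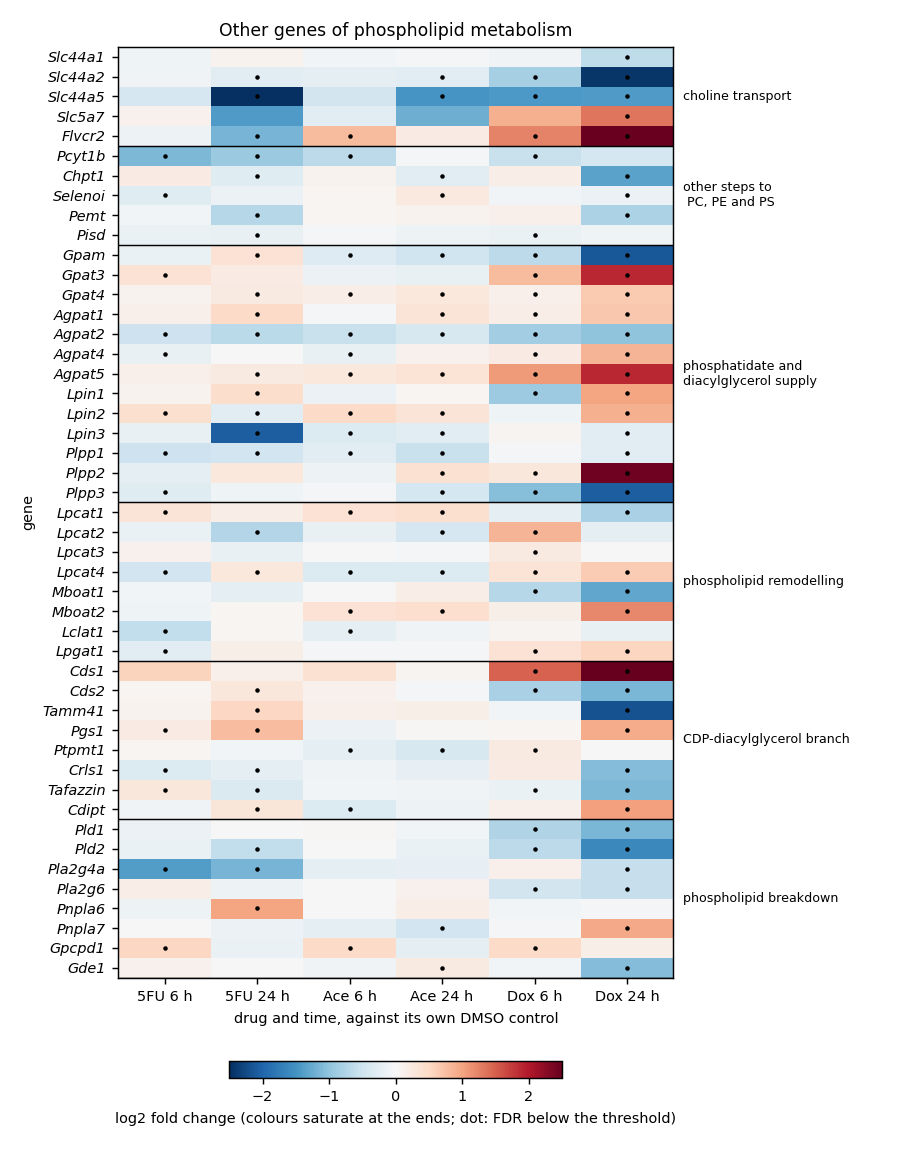
Log2 fold change (colour, saturating at the ends of the scale) of the 47 other genes of phospholipid metabolism (rows, grouped by list) with each drug and time against its own DMSO control (columns), with a dot where the FDR is below 0.01. Dox at 24 h holds the most dots (39 of 47, where 81.4% of all genes were called), and Cds1, Flvcr2, Slc44a2 and Tamm41 are among its strongest colours.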

How the data were processed

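RNA was sequenced from polyadenylated transcripts of 65 cultures. Per the labels and the study's methods, the authors quantified reads with kallisto 0.46.0 and summed them to genes, and deposited 1 table of estimated counts (expected counts, whole numbers as deposited) for 14554 genes in which genes with low counts throughout had been removed. DESeq2 is named in the submitters' processing notes without a version. Estimated counts can divide reads between similar genes. The columns name only the group, so libraries were numbered within groups as names.

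The counts were fitted with edgeR 4.0.16 (R 4.3.3, quasi-likelihood test, TMM scaling, all 10 groups in 1 fit), and p-values were adjusted over all genes (Benjamini-Hochberg, FDR below 0.01). A minimum of 10 counts in 1 library removed 0 genes. Totals were 14332827 to 25738297 counts, with TMM factors of 0.859 to 1.07. Symbols for 14009 genes came from RefSeq. Members, lists and tests were chosen with earlier results of these data known, and Dox values of the members are descriptive. All 10 members are described, and of the other pathway genes the text names the 2 largest called increases and the 2 largest decreases per drug and time, plus the whole list of other steps to PC, PE and PS. A pathway gene named for 1 comparison may also have changed in others that are not given. Alternatives were other scalings, filters and thresholds, the DESeq2 1.42.0 Wald test, a fit of the compared groups only, and leaving out each library. The code was tested on simulated data.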

Additional observations from a re-analysis of the deposited data

Results flagged for a closer look

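Of 100 combinations of gene and group, 9 held a library far from the rest by Dixon's test, where chance gives about 1 in 20, or 5. Library 1 of 5FU at 6 h had 170.9 CPM of Pcyt2, beside 113.2 to 131.5 CPM in the others, and 96.32 CPM of Ptdss2, beside 70.25 to 78.27 CPM. Library 1 of DMSO1 at 24 h had 59.61 CPM of Chkb, beside 42.7 to 48.1 CPM, and 81.6 CPM of Ptdss2, beside 89.44 to 91.78 CPM. In DMSO1 at 6 h, library 3 had 124 CPM of Pcyt1a, beside 110 to 114.6 CPM, and library 4 had 151.3 CPM of Pcyt2, beside 113.6 to 124.3 CPM. Library 2 of DMSO2 at 6 h had 19.08 CPM of Cept1, beside 22.34 to 24.57 CPM. Library 7 of Dox at 24 h had 183 CPM of Ptdss1, beside 142.6 to 156.5 CPM, and library 7 of Dox at 6 h had 72.92 CPM of Agpat3, beside 63.7 to 66.52 CPM.

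The effect of 5FU differed between 24 and 6 h by the interaction test for Chkb (0.4 on the log2 scale) and Ptdss2 (-0.428). Without library 1 of 5FU at 6 h these were 0.427 and -0.363, and without library 1 of DMSO1 at 24 h 0.473 and -0.452.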

How the results depend on the processing

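No paired analysis was possible because the columns of the count table carry no replicate numbers. With DESeq2 size factors or filterByExpr, 112 of 112 results for single genes kept their direction and, where tested, their side of the threshold, as did 111 with the DESeq2 Wald test and 110 in a fit of the compared groups only (18 of 130 lay within 0.05 of 0 and were not compared). A run with no filter only repeated the main fit, because the filter had removed 0 genes. The Dox results have no test and were compared by size alone, and the members past the threshold in Dox at 6 h went from 8 to 7 with DESeq2 size factors and with the DESeq2 Wald test. With library size scaling the members called were 3 for 5FU at 6 h, 4 for the 5FU change between times and 2 for Ace against 5FU at 24 h, and Pcyt2 with 5FU at 6 h (-0.0266), Etnk2 with Ace at 24 h (0.000483) and Chkb in the Ace change between times (0.033) changed sign. With this scaling Etnk1 with 5FU at 24 h (0.192) and Ptdss1 with Ace at 6 h (0.137) also lost their calls. The pathway genes called between the DMSO controls at 6 h were 3 higher and 6 lower, and 1 and 10 with library size scaling. At an FDR below 0.1 the members called were 5 for Ace at 6 h (48.9% of all genes), 6 for the 5FU change between times (56.4%) and 1 for the Ace change (26.6%). With a log2 fold change of at least 1 in addition, there were 2 for Dox at 6 h (15.4% of all genes) and 6 at 24 h (39.1%), and 0 in each 5FU and Ace comparison, between DMSO1 and DMSO2 at 6 h, between control times, in the 5FU change between times and in Ace against 5FU.

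Leaving out each library in turn kept 1963 of 1997 single-gene results as they were. Signs turned for Pcyt2 with 5FU at 6 h (-0.044 to 0.118), Etnk2 with Ace at 24 h (-0.183 to 0.00691) and Etnk2 between the DMSO controls at 24 h (-0.197 to 0.00501). The cause of these changes was not tested. Etnk2 had 13 to 55 counts per library outside Dox.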
